A study of Mus musculus with 6 samples.

Results

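The Myb family and Foxm1 were examined across 6 RNA-seq libraries of cells sorted from the subventricular zone of adult mice, the neurogenic niche beside the lateral ventricles. The members were the 4 rows of the deposited gene table named Myb, Mybl1, Mybl2 and Foxm1, of 55487 genes in all. They were chosen for their role, with earlier results of these data known. The study compared TKO with THC mice. TKO mice had the Rb family alleles Rb(F/F), p107(-/-) and p130(F/F), and THC mice the alleles Rb(F/+), p107(+/-) and p130(F/+), where F is a floxed copy. Both genotypes carried NestinCreERT2, a tamoxifen-inducible Cre under a Nestin promoter, and an EYFP reporter at R26, on a mixed C57BL/6;Sv/129 background. The p107 allele is not floxed, and THC cells are heterozygous throughout and not wild type. Mice began tamoxifen gavage (200 mg/kg per day for 5 days) when 6 to 10 weeks old, and 10 days after the last dose the tissue of several mice was pooled to reach at least 200000 YFP-positive cells per library. The labels place TKO 1 and THC 1 in a February batch, and TKO 2, TKO 3, THC 2 and THC 3 in a November batch.

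The MYB proteins are transcription factors that share a DNA-binding domain built of helix-turn-helix repeats. MYBL2 (B-MYB) is found in most dividing cells, where it joins the MuvB complex and helps to switch on genes of G2 and mitosis. MYB (c-MYB) is best known from blood progenitors and also acts in multiciliated cells of the airway, and MYBL1 (A-MYB) from meiotic germ cells of the mouse testis. FOXM1 is a forkhead factor recruited by the MYB-MuvB complex to late cell-cycle promoters. In resting cells MuvB instead binds p130 or p107 with E2F4 as the DREAM complex, which represses the same promoters, and MYBL2 is itself a gene that E2F and pocket proteins hold down.

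Promoter windows are shown because 2 of the 4 members have one in the RefSeq table, and because the mitotic genes that MYB-MuvB and FOXM1 act on carry a named element there. Each window runs from 250 bases before to 50 bases after a transcript start (GRCm38.p6) and is printed in the direction of the gene. Capitals mark the E2F core letters GGCGGGA and the letters TTTGAA of the cell-cycle genes homology region (CHR), searched on both strands. The windows of Myb (chr10:21160935-21161234, minus strand) and Mybl2 (chr2:163054385-163054684, plus strand) are followed by those of Aspm (chr1:139454523-139454822, plus strand) and Kif23 (chr9:61946750-61947049, minus strand), the late cell-cycle genes with the smallest adjusted p among those with a single window.
Myb: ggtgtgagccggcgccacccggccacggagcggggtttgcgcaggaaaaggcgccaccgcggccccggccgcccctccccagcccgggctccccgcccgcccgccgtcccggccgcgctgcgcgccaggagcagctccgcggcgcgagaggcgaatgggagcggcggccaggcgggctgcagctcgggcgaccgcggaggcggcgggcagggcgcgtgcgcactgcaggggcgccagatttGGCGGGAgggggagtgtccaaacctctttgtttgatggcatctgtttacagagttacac
Mybl2: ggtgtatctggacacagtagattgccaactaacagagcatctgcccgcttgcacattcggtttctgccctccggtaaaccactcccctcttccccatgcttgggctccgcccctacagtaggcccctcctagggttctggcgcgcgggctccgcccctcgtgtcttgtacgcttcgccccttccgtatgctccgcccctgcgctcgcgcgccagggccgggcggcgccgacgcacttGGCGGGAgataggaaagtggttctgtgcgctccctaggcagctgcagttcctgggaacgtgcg
Aspm: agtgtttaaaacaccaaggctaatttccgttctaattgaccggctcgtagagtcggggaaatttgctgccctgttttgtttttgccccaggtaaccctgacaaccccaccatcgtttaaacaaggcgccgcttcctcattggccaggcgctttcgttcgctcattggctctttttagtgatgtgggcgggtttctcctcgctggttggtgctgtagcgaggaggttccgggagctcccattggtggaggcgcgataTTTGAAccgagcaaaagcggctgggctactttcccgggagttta
Kif23: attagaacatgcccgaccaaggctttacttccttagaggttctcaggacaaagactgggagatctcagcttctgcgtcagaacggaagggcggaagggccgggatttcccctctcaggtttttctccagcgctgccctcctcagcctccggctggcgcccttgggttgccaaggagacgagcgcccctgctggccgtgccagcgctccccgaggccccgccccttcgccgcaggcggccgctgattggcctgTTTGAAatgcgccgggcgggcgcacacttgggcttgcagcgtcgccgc

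The windows of both members held GGCGGGA once, beginning 13 bases before the RefSeq start in Mybl2 and 9 bases before it in Myb. The Mybl2 window ends at 163054684, short of 163054687, where the gene begins in the GENCODE annotation. The place of GGCGGGA in Mybl2 thus depends on the start used. Neither held TTTGAA. The Myb window also held the forkhead letters TAAACA on the opposite strand, beginning at base 34 after the start. Of the 12151 genes with a window that were also tested for expression, 22.9% held GGCGGGA and 14.6% held TTTGAA in at least 1 window, and of all 27025 genes with a window 12.7% and 20.2% did. Of 38 late cell-cycle genes, 32 had a window. Of these, 24 (75.0%) held TTTGAA, which lay just behind the start in Aspm (base 7) and in Kif23 (base 3). CCAAT was found in 28 of the 32 (87.5%), against 42.6% of the genes tested. GGCGGGA was found in 9 (28.1%, against 22.9%), 1 of the 4 MYB words (CAACGG and CAACTG, beside the forms TAACGG and TAACTG) in 13 (40.6%, against 28.9%), and TAAACA in 8 (25%, against 10.7%). The letters were chosen after the member windows had been read, genes with several windows had more room for a match, and the late genes are partly known for this element, so these shares are a description only.

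Libraries were of like depth, with 15536084 to 16961817 reads assigned to genes. Rbl1, the p107 gene, was at a normalized count of 42.0, 18.3 and 14.5 in the TKO libraries, against 520.2, 497 and 646 in the THC libraries, so the p107 label and the counts go together. Rb1 was higher in TKO (3267 ± 355, against 1849 ± 199 in THC) and Rbl2 did not pass the test (log2 change -0.13, adjusted p = 0.54). Counts over the whole gene do not show whether a floxed part was removed. Markers of several cell types in the niche moved with genotype, counted at a limma adjusted p under 0.05. At that threshold 14.3% of all genes tested were higher in TKO and 13.6% lower. Of 8 markers of neural stem cells and astrocytes, 2 were higher in TKO and 1 lower (4 higher without TKO 1 or THC 1). The astrocyte filament gene Gfap rose by 2.01 and the neural progenitor filament gene Nes by 1.21, while Aldoc, a glycolytic enzyme of astrocytes, fell by 2.35. The list summed to 102002 to 132290 in TKO and 93114 to 156945 in THC, most of it Slc1a3. Of 8 neuroblast markers 5 were lower and none higher, among them Dcx (-0.73) and Tubb3 (-1.04), with sums of 18290 to 25100 in TKO and 26394 to 37869 in THC. Lower counts were also called for 3 of 4 tested neuron markers (883 to 962 in TKO, 1524 to 2346 in THC), 6 of 6 myelin genes (12059 to 21384 in TKO, 74698 to 84721 in THC), 7 of 8 endothelial genes (2814 to 3837 in TKO, 6110 to 14207 in THC) and 3 of 5 mural cell genes (2456 to 4221 in TKO, 5935 to 9383 in THC). None of these was called higher. Of 5 oligodendrocyte progenitor markers 1 was higher (2 without THC 1, 3 without TKO 1, and none without TKO 2, TKO 3, THC 2 or THC 3), with sums of 5822 to 8543 in TKO and 3425 to 11755 in THC. The part of these cell types in the results below was not tested.

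All 4 members were higher in TKO, in every TKO library over every THC library. The largest change was that of Mybl1, which rose 9.35-fold by the means, followed by Foxm1 (3.2-fold), Mybl2 (2.86-fold) and Myb (1.63-fold). The Myb call rested on the February pair. Changes were tested with limma on log2(normalized count + 1) with a batch term, and adjusted p-values are Benjamini-Hochberg values over the 17278 genes tested. All 4 members passed the minimum of a normalized count of 10 in at least 3 libraries, and all 4 were called higher at an adjusted p under 0.05. Of the genes tested, 27.9% were called in either direction, 14.3% as higher and 13.6% as lower in TKO. The genotypes did not overlap for 38.9% of the genes, and for 19.4% every TKO library was the higher one. In pooled RNA of sorted cells, more cycling cells and more RNA of these genes per cell cannot be told apart.

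**Figure D1:**
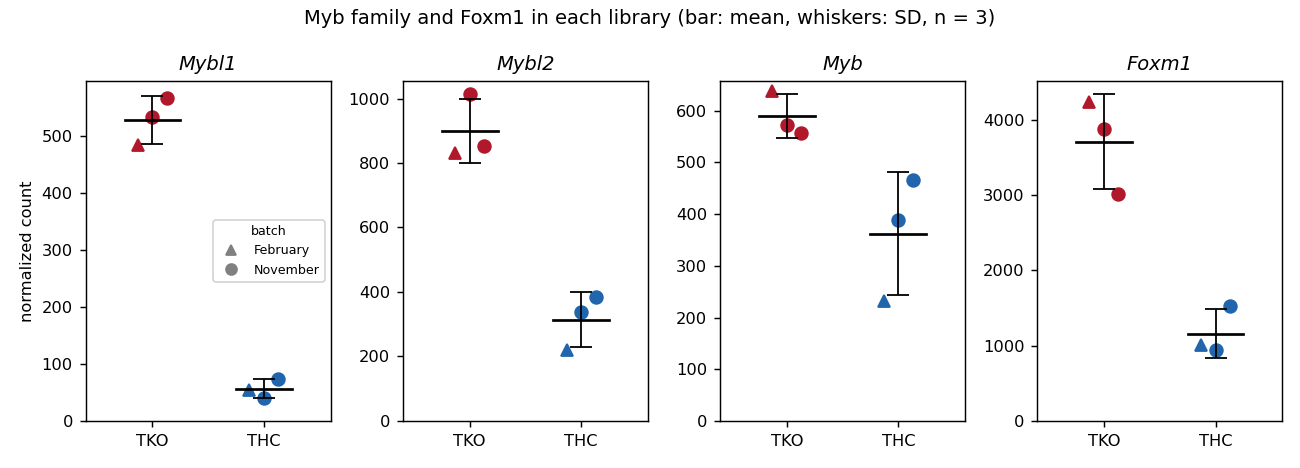
Normalized count (vertical axis, from 0) of Mybl1, Mybl2, Myb and Foxm1 in the 3 TKO and 3 THC libraries; triangles are February and circles November libraries, the bar is the mean and the whiskers the SD (n = 3). In each panel every TKO point lies above every THC point, with a wide gap for Mybl1 (484 and above, against 73.7 and below) and a narrow one for Myb (557 and above, against 467 and below).

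Mybl1 encodes A-MYB (ENSMUSG00000025912, chromosome 1, 9667415 to 9700209, minus strand, GRCm38). It had a normalized count of 484, 533 and 568 in TKO 1, 2 and 3, against 55.1, 40.6 and 73.7 in THC 1, 2 and 3. The lowest TKO library was 6.57 times the highest THC library. Mybl1 thus was a gene of middle abundance in TKO and a low one in THC, where it rested on 43 to 73 reads per library. Its mean was 528 ± 42.1 in TKO and 56.5 ± 16.6 in THC (SD, n = 3 each), and it rose by 3.24 on the log2 scale (SE 0.24, 95% interval 2.71 to 3.77, limma adjusted p = 3.3e-06). That change lies at the 99.6th percentile of all genes tested. It was alike in both batches, 3.11 in February and 3.31 in November.

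Mybl2 encodes B-MYB, the member of dividing cells (ENSMUSG00000017861, chromosome 2, 163054687 to 163084688, plus strand). Its normalized count was 833, 1015 and 853 in TKO 1, 2 and 3, against 221, 339 and 384 in THC 1, 2 and 3. The lowest TKO library, TKO 1, was 2.17 times the highest THC library, THC 3. The mean was 899.9 ± 99.7 in TKO and 314 ± 84.4 in THC (SD, n = 3 each), a rise of 1.55 on the log2 scale (SE 0.16, 95% interval 1.19 to 1.90, limma adjusted p = 2.8e-05). The difference was 1.91 in February and 1.36 in November.

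Foxm1, the forkhead factor of late cell-cycle genes (ENSMUSG00000001517, chromosome 6, 128362967 to 128376146, plus strand), was the most abundant member. It stood at 4241, 3875 and 3011 in TKO 1, 2 and 3, against 1007, 944 and 1528 in THC 1, 2 and 3. The lowest TKO library, TKO 3, was 1.97 times the highest THC library, THC 3. The mean was 3709 ± 631 in TKO and 1160 ± 320.3 in THC (SD, n = 3 each), a rise of 1.70 on the log2 scale (SE 0.19, 95% interval 1.28 to 2.11, limma adjusted p = 4.7e-05). The difference was 2.07 in February and 1.51 in November.

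Reads in exon bases that Foxm1 shares with an overlapping gene cannot be told apart, and these libraries do not keep strand. Tex52, on the same strand, shares 144 bases of exon with Foxm1 (2.5% of the Foxm1 exons), and had only 22.2 to 38.7 normalized counts in TKO and 14.2 to 30.3 in THC. Rhno1, whose human protein works with the checkpoint clamp at damaged DNA, is transcribed away from Foxm1 and is separated from it by 55 bases. Rhno1 was at 1129, 1167 and 894 in TKO 1, 2 and 3, against 565, 630 and 804 in THC 1, 2 and 3. It rose by 0.68 (SE 0.16, limma adjusted p = 0.0085), a smaller value than that of Foxm1, and its call ended without TKO 1 or THC 1 (0.52, adjusted p = 0.0646 and 0.0625). Gm43965, a transcript of unknown function 834 bases from Foxm1 on its strand, was at 101, 175 and 134 in TKO 1, 2 and 3, against 27.1, 19.8 and 56.6 in THC 1, 2 and 3. Its change was 2.06 (SE 0.38, limma adjusted p = 0.0016). No difference between these genes was tested.

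Myb, the c-MYB gene (ENSMUSG00000019982, chromosome 10, 21124935 to 21160984, minus strand), moved least. It stood at 637, 573 and 557 in TKO 1, 2 and 3, against 233, 388 and 467 in THC 1, 2 and 3. The groups did not overlap, but the lowest TKO library was only 1.19 times the highest THC library. The mean was 589 ± 42.4 in TKO and 362 ± 119 in THC (SD, n = 3 each), a rise of 0.76 on the log2 scale (SE 0.20, 95% interval 0.31 to 1.20, limma adjusted p = 0.016). The batches gave unlike values: in February TKO 1 was 2.74 times THC 1, while the TKO mean of November was 1.32 times the THC mean. On the log2 scale the differences were 1.45 and 0.41. Without TKO 1 or THC 1 the change was 0.41 and the call ended (adjusted p = 0.142 and 0.125). A test of the batch difference itself gave 1.04 (SE 0.32, 95% interval 0.35 to 1.74, unadjusted p = 0.0064, limma adjusted p = 0.29 over all genes). February holds 1 library per genotype, so the spread behind that test comes from the November libraries and, through limma, from other genes. TKO 1 had no reads of Xist, which coats an inactive X, while the other 5 libraries had 944 to 2047 normalized counts. Ddx3y, a gene of the Y chromosome, was at 510 to 1896 in all 6 libraries. TKO 1 thus had RNA of the Y gene only, and the other 5 libraries RNA of both. TKO 1 enters the results of all members and lists, and the part of this difference in the Myb result or in any other was not tested. Gm26577, antisense to Myb, had at most 1.07 normalized counts in TKO and 1.89 in THC.

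**Figure D2:**
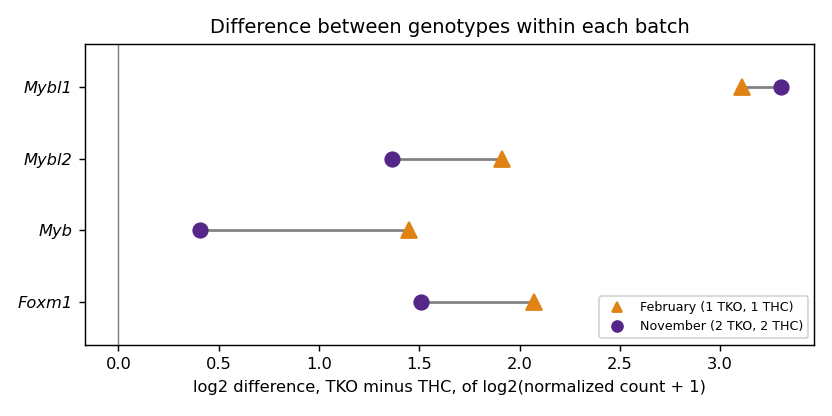
Difference between genotypes (horizontal axis, TKO minus THC, log2 scale) within February (triangles, 1 library per genotype) and within November (circles, 2 per genotype) for each member. All 8 differences are above 0. Those of Mybl1 lie close together at 3.11 and 3.31, and those of Myb far apart at 1.45 and 0.41.

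In the authors' deposited table, made with a batch term, the log2 changes were 3.23 for Mybl1 (SE 0.24, adjusted p = 3.92e-37), 1.68 for Foxm1 (SE 0.20, adjusted p = 1.06e-15), 1.55 for Mybl2 (SE 0.19, adjusted p = 2.99e-15) and 0.75 for Myb (SE 0.22, adjusted p = 0.0032).

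A ratio of 2 members within each library compares their changes independently of gene length. Its values did not overlap between genotypes for 5 of the 6 pairs. The log2 ratio of Mybl1 to Mybl2 was -0.78, -0.93 and -0.59 in TKO 1, 2 and 3, against -1.98, -3.03 and -2.36 in THC 1, 2 and 3, a difference of 1.69. Mybl1 also gained on Foxm1 by 1.55 and on Myb by 2.49, with no overlap between genotypes. The ratio of Foxm1 to Mybl2 stayed within its spread, at 2.03 ± 0.28 in TKO and 1.88 ± 0.37 in THC (SD, n = 3 each), a difference of 0.15. Mybl2 and Foxm1 gained on Myb by 0.79 and 0.94. An exact two-sided permutation test of 3 against 3 libraries cannot go below p = 0.10. It gave exactly that for 5 of the 6 pairs (0.12 adjusted over the 6) and p = 0.70 for Foxm1 over Mybl2, so none of the 6 could pass.

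By the means, levels per length changed the order of the members with all exons as the length, and left it unchanged with the principal transcript. With all annotated exons of a gene as its length, normalized counts per kb in TKO were 645 ± 110 for Foxm1, 194 ± 21.5 for Mybl2, 97.8 ± 7.79 for Mybl1 and 65.9 ± 4.75 for Myb (SD, n = 3 each). In THC they were 202 ± 55.7 for Foxm1, 67.9 ± 18.2 for Mybl2, 10.5 ± 3.07 for Mybl1 and 40.6 ± 13.3 for Myb. By this length Mybl1 was therefore above Myb in TKO and the lowest member in THC. By the principal transcript alone (3074 bases for Myb, against 8933 for its exons together) Myb was at 192 ± 13.8 per kb in TKO, above Mybl1 at 106 ± 8.45, and at 118 ± 38.7 in THC, against 11.3 ± 3.33 for Mybl1. Mybl2 was at 246 ± 27.3 in TKO and 86.1 ± 23.1 in THC by the principal transcript. Within each THC library Mybl2 was above Myb by all exons and below it by the principal transcript, although the ranges of both genes over the 3 libraries overlapped. Whichever length was used, Foxm1 was the highest and Mybl1 the lowest member in every THC library.

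**Figure D3:**
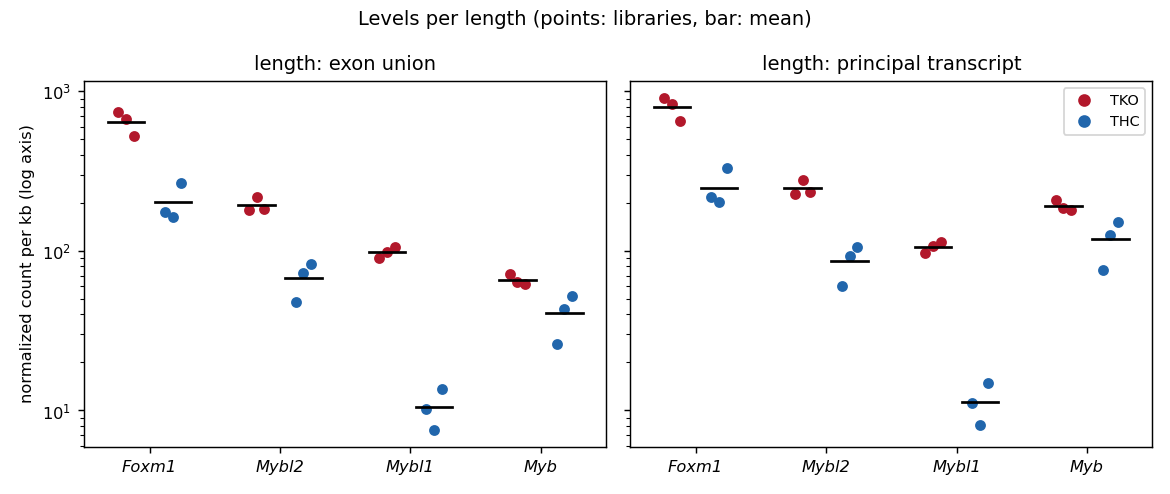
Normalized count per kb (log axis) of each member in TKO and THC libraries, with length taken as all annotated exons (left) or the principal transcript (right); points are libraries and bars means. Foxm1 is highest throughout, and the place of Mybl1 relative to Myb in TKO depends on the length used.

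By profile over the 6 libraries, centred on the mean of each gene, the genes nearest to Mybl1 were Slfn9 (root mean square difference 0.20 on the log2 scale), Ybx2 (0.21) and St14 (0.22). Those nearest to Mybl2 were Fam221a (0.07), Ccdc34 (0.10) and Rad51b (0.12), and those nearest to Foxm1 were Ercc6l (0.07), Prc1 (0.09) and Nek2 (0.10). Myb lay nearest to Tubb4b (0.10), Steap1 (0.10) and Wdr78 (0.11). With 6 libraries in 2 genotypes this likeness is mostly one of genotype and batch.

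The DREAM and MuvB subunits, the partners of the MYB proteins and of the pocket proteins, were mostly higher. Of 12 genes, all tested, 8 rose (66.7%) and 1 fell (8.33%), against 14.3% and 13.6% of all genes tested. The median log2 change was 0.58, against 0.00 for all genes tested. The gene that fell is the targeted Rbl1. Lin54, the DNA-binding subunit of MuvB, rose by 1.46 (SE 0.13, limma adjusted p = 8.6e-06) to 1505 ± 182 in TKO, against 545 ± 62.0 in THC. Lin9, the subunit that takes part in binding B-MYB, rose by 1.21 (SE 0.13, adjusted p = 3.7e-05), and Lin52 by 0.53 (adjusted p = 0.0053). Lin37, the subunit needed for repression by DREAM, had a change of 0.28 (adjusted p = 0.22), and E2f4 one of 0.08 (adjusted p = 0.69). Rbbp4, the histone-binding subunit, rose by 0.48 (adjusted p = 0.034) and lost the call without TKO 1, TKO 2, THC 1 or THC 2.

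The E2F genes that act upstream of Mybl2 also rose. All 5 of the list were called higher, against 14.3% of all genes tested, with a median of 1.56. E2f8 and E2f7, repressors that E2F itself induces, rose by 2.34 and 2.00 (limma adjusted p = 1.8e-06 and 5.5e-06), and E2f2, an activator, by 1.5 (adjusted p = 4.3e-05). E2f3 was at the threshold (0.51, adjusted p = 0.0498). It lost the call without TKO 2, TKO 3, THC 2 or THC 3, and under further settings given at the end.

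Regulators of FOXM1 were mostly higher. Of 11 genes, 10 were tested, and of these 9 rose and none fell, with a median of 1.20. Of all genes tested, 14.3% were called higher and 13.6% lower. Ccnb1 and Plk1 are in the list of late cell-cycle genes as well. Cdk1, Cdk2 and cyclin A2, whose kinase activity switches FOXM1 on, rose by 1.67, 1.31 and 1.70 (Cdk1, Cdk2 and Ccna2; limma adjusted p = 2.7e-05, 2.1e-05 and 4.5e-05). Plk1, which phosphorylates FOXM1 and is also its target, rose by 1.19 (adjusted p = 0.00077). Melk and Chek2, kinases reported to act on FOXM1 in human cells, rose by 1.49 and 1.20. Cdkn2a, whose ARF product restrains FOXM1, did not reach a normalized count of 10 in any library (1.93 to 5.86 in TKO and 0 to 3.78 in THC).

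The late cell-cycle genes are targets of MYB-MuvB and FOXM1. All 38 were called higher, and in all 38 every TKO library lay above every THC library. Of all genes tested, 14.3% were called higher, and for 19.4% every TKO library was the higher one. Their median log2 change was 1.53 and the range 0.94 to 2.10, and their counts summed to 192268 to 219382 in TKO and 58918 to 87615 in THC. Aspm, a spindle pole protein gene, rose by 1.81 (SE 0.13, limma adjusted p = 2.7e-06), Kif23, a kinesin of cytokinesis, by 1.53 (SE 0.12, adjusted p = 4.4e-06), and Pbk, a mitotic kinase, by 2.10 (SE 0.17, adjusted p = 5.9e-06). The largest adjusted p were those of Ube2c, a ubiquitin-conjugating enzyme of mitotic exit (1.16, adjusted p = 0.0011), and Bub1b, a spindle checkpoint kinase (1.01, adjusted p = 0.00086). Set among these targets, the members spread out. The change of Mybl1 was larger than that of each of the 38, and the change of Myb smaller than that of each. Foxm1 lay above 29 of them and Mybl2 above 21. No test was made of these positions.

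**Figure D4:**
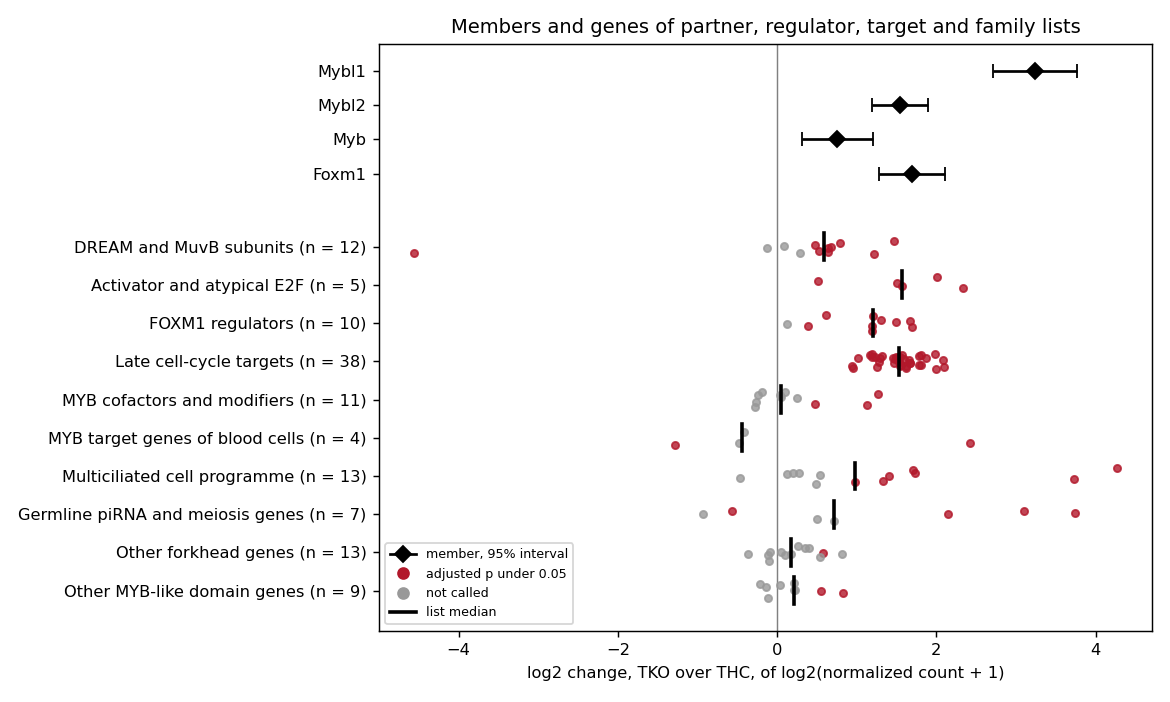
Log2 change, TKO over THC (horizontal axis), of the 4 members with 95% intervals (diamonds, top) and of the tested genes of 10 lists (circles, red where called at an adjusted p under 0.05, grey where not), with a bar at each list median. Mybl1 at 3.24 lies to the right of all 38 late cell-cycle targets and Myb at 0.76 to their left. Mcidas, Cdc20b and Meiob, which passed the minimum through the TKO libraries, are drawn as red circles and enter the bars. The multiciliated bar is thus at 0.97 over 13 genes, against 0.54 for the 11 without Mcidas and Cdc20b.

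Relatives and cofactors are set against the 14.3% of all genes tested that were called higher. Of 13 other forkhead genes, 1 rose (7.69%) and none fell, with a median of 0.18. That gene, Foxn2, rose by 0.58 (adjusted p = 0.041) and lost the call without TKO 2, TKO 3, THC 2 or THC 3. Its February difference was -0.07, and without TKO 1 or THC 1 the change was 0.90. Of 9 other genes with a MYB-like domain, 2 rose (22.2%) and none fell, with a median of 0.21, and both encode proteins that bind telomere repeats. Terf1 rose by 0.82 (SE 0.13, limma adjusted p = 0.00054) and Terf2 by 0.55 (SE 0.14, adjusted p = 0.011). Of 11 cofactors and modifiers of MYB, 3 rose (27.3%) and none fell, with a median of 0.04. Pim1, a kinase that acts on c-MYB, rose by 1.12 (adjusted p = 0.00045) and Cebpb, its partner in myeloid cells, by 1.26 (adjusted p = 0.0017). Psip1, which tethers the MYB-menin complex to chromatin, was near the threshold (0.47, adjusted p = 0.049) and lost the call without TKO 1, TKO 2, THC 1 or THC 2.

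Genes that MYB drives in blood progenitors were mostly not detected above the minimum. Of 10 genes, 6 stayed under a normalized count of 10 in all libraries (Gfi1, Mpo, Elane, Rag2, Ptcra and Gata3). Of the 4 tested, Myc rose and Cd34, which is also an endothelial gene, fell. Myc was at 953, 493 and 593 in TKO 1, 2 and 3, against 177, 127 and 78.8 in THC 1, 2 and 3, a rise of 2.42 (SE 0.20, limma adjusted p = 6.1e-06). Cd34 had a change of -1.28 (SE 0.32, adjusted p = 0.011), and -1.24 without TKO 3, which ended the call (adjusted p = 0.0525). Without THC 2, the highest library, it was -0.76 (adjusted p = 0.0119). Bcl2, a survival gene, and Kit, a receptor of blood progenitors, had changes of -0.42 and -0.47 (adjusted p = 0.082 and 0.17). Bcl2 was at -0.22 without TKO 1 or THC 1 and -0.60 without TKO 3 (adjusted p = 0.0251), and Kit at -0.24 without THC 2. Without THC 3, in turn, Cd34, Bcl2 and Kit were all 3 called lower. The T and B cell markers Cd3e, Cd3g and Ms4a1 had no reads in any library. The list of 10 blood markers, haemoglobin included, summed to 357 to 400 in TKO and 733 to 2171 in THC, and 2 of its 3 tested genes, Hba-a1 and Hbb-bs, were lower in TKO. Of 10 microglia markers 4 were higher (40%, against 14.3% of all genes tested), but only 1 without TKO 2 and 2 without THC 3. Their sums were 1402 to 7225 in TKO and 1008 to 4716 in THC. The part of microglia in these results was not tested.

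MYB is an early factor of the multiciliated cell programme. Of its 13 genes, all passed the minimum, but Mcidas and Cdc20b only through the TKO libraries, and these 2 are given as values with no test. Of the other 11, 5 rose and none fell, with a median of 0.54. Of all genes tested, 14.3% were called higher and 13.6% lower. Over all 13, 1 gene was called lower without TKO 1 or THC 1. Mcidas, the geminin-family coactivator that starts the programme, was at 22.4, 22.6 and 23.2 in TKO 1, 2 and 3, against 0, 4.72 and 0 in THC 1, 2 and 3. Cdc20b, a gene of centriole amplification, was at 20.5, 12.9 and 23.2 in TKO and had no reads in THC. Deup1, which builds the deuterosome, rose by 1.70 (limma adjusted p = 0.0012), and Plk4 and Cep152, which also serve centriole duplication in dividing cells, rose by 1.73 and 1.33 (adjusted p = 6.4e-06 and 6.6e-05). Ccno and Gmnc, which act with Mcidas early on, rose by 1.41 and 0.97 (adjusted p = 0.0074 and 0.048), and Ccno lost its call without TKO 3 (adjusted p = 0.0543), and Gmnc without any 1 of the 6 libraries (adjusted p = 0.0559 to 0.21). Foxj1, the factor of motile cilia, had a change of 0.54 (adjusted p = 0.16), made up of 1.68 for the February pair and -0.026 for November. Trp73, upstream of Foxj1, had a change of 0.27 (adjusted p = 0.67), and -0.57 in November. Of 9 ependymal markers 1 was higher and 3 were lower (none and 5 without TKO 1 or THC 1), and their sum was 7453 to 9912 in TKO and 5345 to 17294 in THC. Foxj1 is in both lists and in that of the forkhead genes, and the part of ependymal cells in these values was not tested.

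Germline genes for piRNA and meiosis, the setting in which A-MYB is best known in the mouse, were mostly not detected above the minimum. Of 22 genes, 14 did not reach a normalized count of 10 in any library, and Tdrd1 reached it in THC 3 alone (18.2). Piwil1, the pachytene piRNA-binding protein gene, had at most 2.15 normalized counts in TKO and none in THC. Of 7 tested genes, Ccna1 and Dmc1 rose, Hspa2 fell and 3 were not called, with Meiob given below as values only. The median of all 7, Meiob included, was 0.71. Of all genes tested, 14.3% were called higher and 13.6% lower. Ccna1, the cyclin A of the germline, was at 687, 654 and 748 in TKO 1, 2 and 3, against 56.1, 89.7 and 101 in THC 1, 2 and 3, a rise of 3.11 (SE 0.20, limma adjusted p = 1.8e-06). Meiob, a single-strand DNA-binding protein of meiosis, was at 102, 91.4 and 127 in TKO, against 6.01, 5.67 and 10.1 in THC. It passed the minimum through the TKO libraries, with THC 3 alone reaching 10 in THC. It is therefore given as values with no test. Dmc1, the meiotic recombinase, rose by 2.15 (SE 0.26, adjusted p = 8.0e-05). Hspa2, a chaperone of spermatocytes that is also made in brain, fell by 0.57 (adjusted p = 0.0055).

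**Figure D5:**
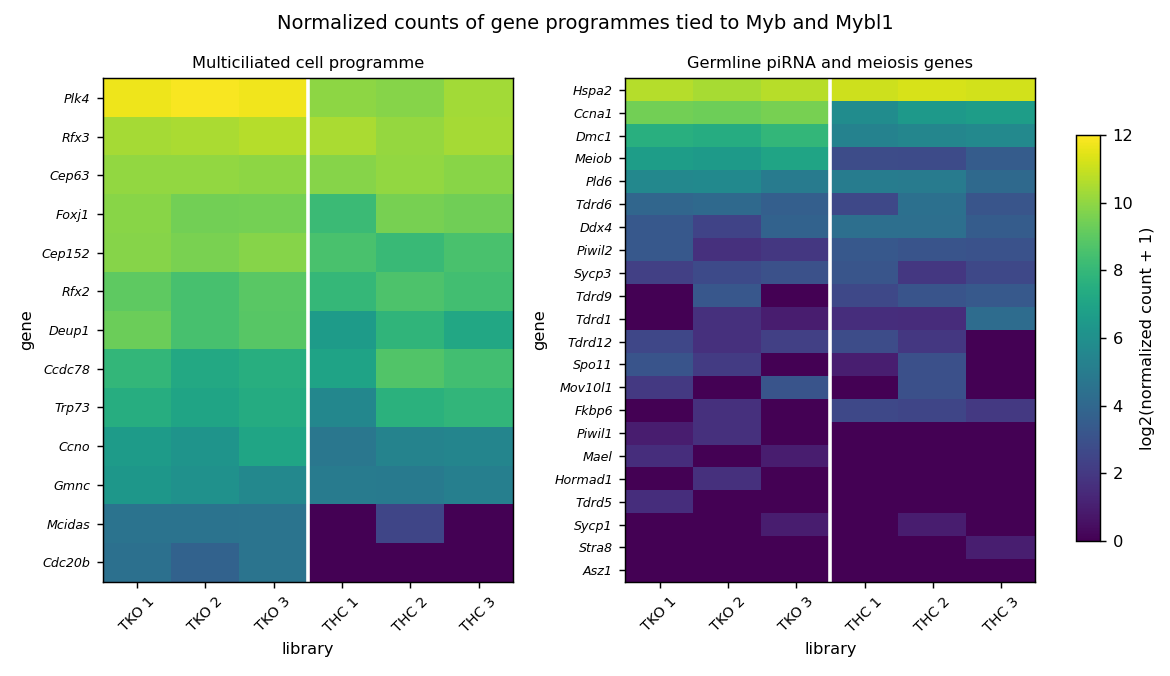
Normalized counts, as log2(normalized count + 1) by colour, of the multiciliated cell list (left, 13 genes) and the germline list (right, 22 genes) in the 3 TKO and 3 THC libraries (columns), with genes ordered by mean. Ccna1, Dmc1 and Meiob stand out in TKO, and Mcidas and Cdc20b are near 0 in THC, while 14 germline genes stay under a normalized count of 10 in every library.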

How the data were processed

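RNA was taken from YFP-positive cells sorted from the subventricular zone, and per the labels' protocols cDNA was made from at least 35 ng of total RNA (RQN of at least 8.0) with SMART-Seq v4 and Nextera XT, which does not keep strand. The submitters' processing notes name HISAT2, featureCounts, Subread, DESeq2 and GRCm38, without versions; the annotation counted is not given in these sources. The authors' deposited table holds a normalized count per gene and library, a signal equal to reads divided by 1 size factor per library. All values (100%) were whole multiples of 1 step within 0.001 of a read, and dividing by the step gave the reads used as depth and in the count tests. Per the file headers the authors' table further holds log2 fold changes and standard errors, a score (Wald statistic, and a weight), and each p-value before and after adjustment.

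The values are normalized, so limma 3.58.1 (R 4.3.3) with an intensity trend was fitted to log2(value + 1) with batch and genotype, over 17278 genes with a value of at least 10 in at least 3 libraries. This scale understates changes of low genes. edgeR 4.0.16 and DESeq2 1.42.0 were run on the reads as alternatives. The fit was also run on simulated data with few changed genes and no difference between batches, so that run does not speak for these data. Libraries of a genotype were no duplicates (chi-square per degree of freedom 15.5 to 44.5). The series calls the libraries biological replicates, and each is a pool of mice. Per-kb levels by principal transcript were added after the data were seen. Coordinates and exon lengths are from GENCODE M21 (GRCm38), which may differ from the annotation counted. The members, 10 lists of partners, targets and relatives and 10 marker lists (214 genes, all matched) were chosen with earlier results of these data known. The rule for genes named was the members, the 3 of each list with the smallest adjusted p, up to 2 with the largest, the 3 nearest profiles and the targeted genes. Marker lists are given mostly as counts and sums, and some genes with the largest adjusted p only in the counts. Other genes of the lists, and the neighbours of Foxm1 and Myb, were picked after their values were seen. No set test was run. No sample column was left unmapped (0). Reads of close copies may be shared to an unknown extent. A few genes of the lists are not reported here by name.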

Additional observations from a re-analysis of the deposited data

How the results depend on the processing

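Mybl1, Mybl2 and Foxm1 kept their direction and their call in all 15 alternatives each, with log2 changes of 2.98 to 3.46, 1.36 to 1.67 and 1.51 to 1.95. The alternatives were no filter on low values, pseudocounts of 0.5 and 5, TMM scaling, no batch term, the replicate block, edgeR, DESeq2, the November samples alone and each library left out in turn. With TKO 1 or THC 1 left out, the batch term takes up the February library that remains. The log2 change is then that of November samples only, so these alternatives repeat each other, also in the counts of reversals and calls below. Myb kept its direction in all 15 and its call in 12, and the 3 that ended it were these. It was 0.41 with November samples only (adjusted p = 0.13) and 0.41 to 0.93 with 1 library left out. The log2 difference of Foxm1 over Mybl2, 0.15, was -0.056 without THC 2 and -0.01 without TKO 1 (-0.056 to 0.30 with 1 library left out), and the other 5 ratios kept their sign. Genes called higher numbered 1890 to 2521 and genes called lower 1637 to 2446 over the alternatives. Among the other genes named, the 9 reversals were those of Foxj1 (-0.026), Trp73 (-0.57) and Rbl2 (0.016), with November samples only and without TKO 1 or THC 1. None was called under any of these. With 1 library left out, Foxj1 ran from -0.026 to 0.74, Trp73 from -0.57 to 0.61 and Rbl2 from -0.25 to 0.016. A further 66 calls ended and 3 appeared over 1005 refits of the 67 other genes named, and the cause was not tested. E2f3, Psip1, Foxn2, Gmnc and Rbbp4 were among those that lost their calls with no batch term and with the replicate block. E2f3 also lost its call with TMM scaling, edgeR, no filter on low values and a pseudocount of 0.5. Among 600 recounts of the lists, 45 moved by over 1.5 times.

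Replicate number 1 marks the February libraries, but numbers 2 and 3 share November, and same-numbered libraries deviated from their genotype means with correlations of 0.23, -0.11 and 0.14, so the numbers were not taken as pairs. With the replicate block, 2147 genes were higher and 1922 lower, and the 4 members kept their calls (Myb adjusted p = 0.028). Mybl1 in THC rests on 43 to 73 reads per library, the fewest behind any value of a member.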
